A study of Mus musculus with 9 samples.

Results

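The genes described here are 10 with published roles in brain colonization or in passage across the blood-brain barrier: the plasminogen activator gene Plau and its receptor gene Plaur, the serpin genes Serpine2, Serpinb2 and Serpini1, the adhesion gene L1cam, the sialyltransferase gene St6galnac5, the cathepsin gene Ctss, the heparanase gene Hpse and the lipid carrier gene Mfsd2a. They were taken by symbol, with the probe set of the highest mean where a symbol had several, among 19938 genes measured. Of the 10, 9 were measured, each by 1 probe set, and Serpine2 is not analysed here. The levels come from 9 cultured lines of 4T1, a mouse mammary carcinoma, each on 1 Affymetrix Mouse Gene ST array: 4T1-T2 lines were taken from primary tumors, 4T1-LM2 lines from metastases in the lung and 4T1-BM2 lines from metastases in the brain, 3 of each, called primary, lung and brain lines below and numbered by mouse within an origin. Per the series design the 9 tumors came from independent mice, so the same number in different origins stands for different animals, and what the number marks is not stated. The labels record no treatment and give no age or strain of the host. Lines of an origin share a name, and the design describes the tumors as re-derived, with 3 mice per cell line. The 3 lines of an origin are therefore read as re-derivations of 1 cell line, and how that cell line was selected is not stated. Spread between them does not measure spread between separately arisen metastases. All values describe cells grown in a dish, and in a mixed culture fewer cells of a type and less RNA per cell cannot be told apart.

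To colonize the brain, a tumor cell must pass an endothelium sealed by tight junctions and then survive among astrocytes and microglia. Urokinase, the product of Plau, is held at the cell surface by its receptor and converts plasminogen to plasmin, a protease that degrades matrix and can release Fas ligand from astrocytes. Serpins made by the tumor cell inhibit the activators, and L1CAM lets cells spread along capillaries until plasmin cleaves it. Cathepsin S cuts junction proteins, heparanase cuts the heparan sulfate of basement membranes, and the sialyltransferase of St6galnac5 alters cell surface glycolipids that bind brain endothelium. MFSD2A carries lysophospholipids with the omega-3 fatty acid DHA into cells, and in brain endothelium it also restrains transcytosis.

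Among the 9 measured genes Mfsd2a was the one that passed the test, and it was higher in brain lines than in both other origins. Its mean intensity, taken from the log2 levels, was 1.90-fold that of primary lines and 1.89-fold that of lung lines. Plau and Hpse had groups that did not overlap in brain against primary lines, Plau higher and Hpse lower in brain lines, and neither passed. Plaur and L1cam overlapped between all origins, and Serpinb2, Serpini1, St6galnac5 and Ctss lay at the level of probe sets that have no gene name. A gene was called at an adjusted p under 0.05 in limma, with Benjamini-Hochberg adjustment over all 19938 genes, in a model of the 9 arrays with 3 lines per origin. In brain against primary lines 1 of the 9 was called, where 3.13% of all genes were, and in brain against lung lines 1 of 9, where 1.98% were. In lung against primary lines 0 of the 9 were called, where 0% of all genes were, and an unadjusted p under 0.05 was reached by 0 of the 9 and by 946 of all genes. The F test over the 3 origins called Mfsd2a (adjusted p = 0.0231) and 2.36% of all genes. The groups did not overlap for 3 of the 9 in brain against primary lines (17.8% of all genes), 2 in brain against lung lines (16.9%) and 0 in lung against primary lines (8.71%). The median log2 change of the 9 was 0.04 in brain against primary, 0.01 in lung against primary and 0.08 in brain against lung lines. Over all genes it was 0.00, 0.01 and -0.01. In both comparisons of brain lines the middle gene, Ctss or Serpinb2, lay at the level of unnamed probe sets, so these medians may be background.

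**Figure D1:**
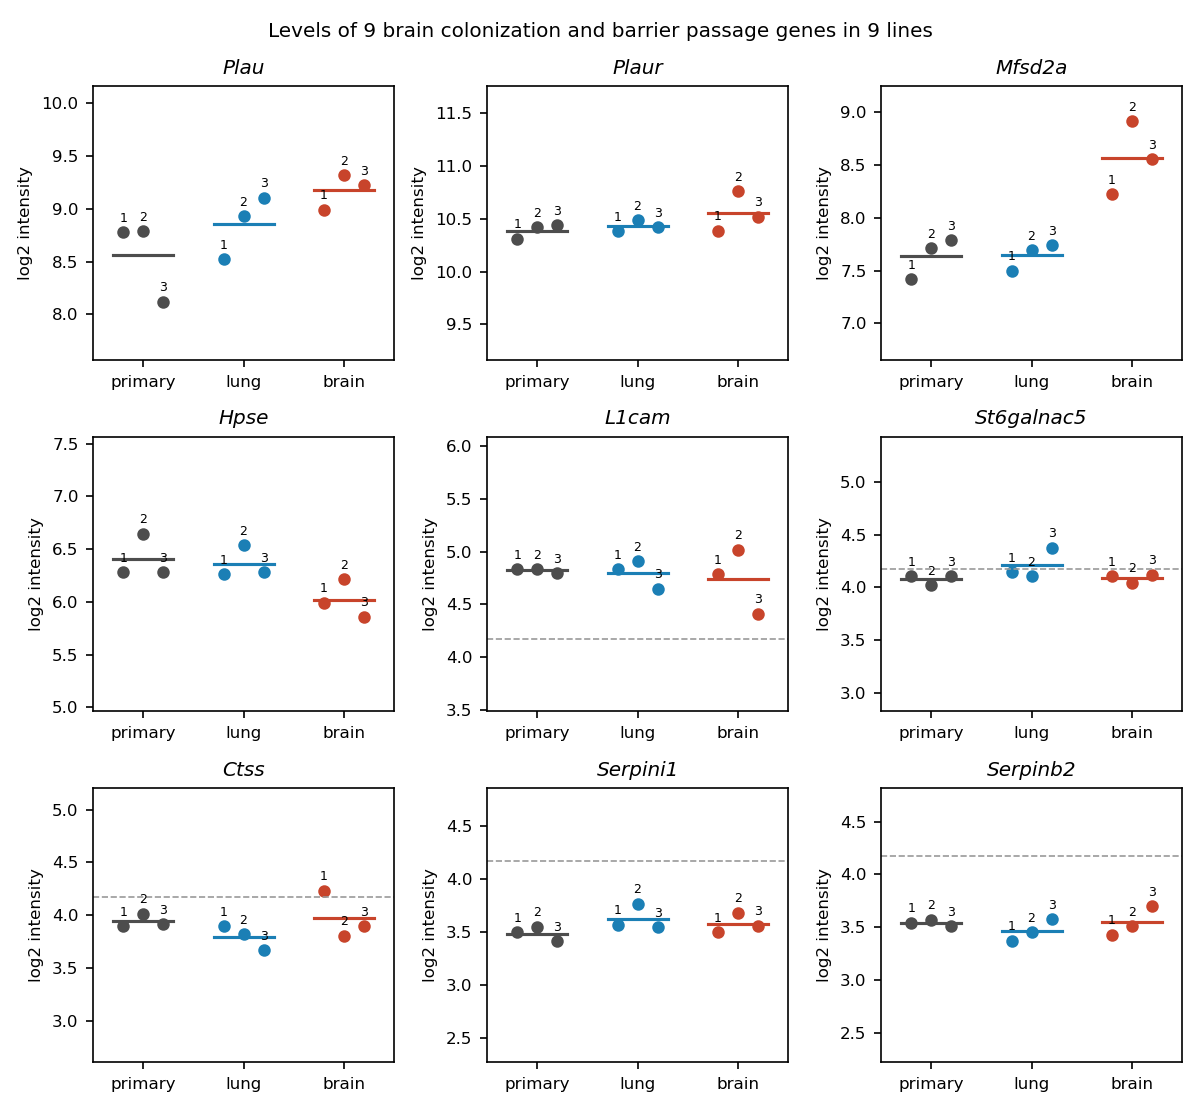
Log2 intensity (vertical axis) of the 9 measured genes in primary, lung and brain lines, 1 point per line with its mouse number, a bar at the mean of each origin, and a dashed line at 4.18, the median of probe sets with no gene name. All panels span the same log2 range; in Mfsd2a the 3 brain lines lie above the other 6, while Serpini1 and Serpinb2 stay below the dashed line in all 9 lines.

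Mfsd2a had log2 levels of 8.22, 8.92 and 8.55 in brain lines 1, 2 and 3. The levels were 7.42, 7.71 and 7.79 in primary lines 1, 2 and 3 and 7.50, 7.70 and 7.74 in lung lines 1, 2 and 3. Every brain line was higher than every line of the other origins, and the primary and lung lines overlapped almost fully. The lowest brain line lay 0.44 above the highest primary line and 0.49 above the highest lung line on the log2 scale. In brain against primary lines the log2 change was 0.93 ± 0.16 (SE, 3 lines per origin, 95% interval 0.56 to 1.29, limma adjusted p = 0.0180). Against lung lines it was 0.92 ± 0.16 (95% interval 0.55 to 1.29, adjusted p = 0.0230). Among all genes 87 had a larger log2 rise in brain against primary lines, and Mfsd2a ranked 267 by p. In lung against primary lines the log2 change of Mfsd2a was 0.01 ± 0.16, with a 95% interval from -0.36 to 0.37 (adjusted p = 1.00).

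The call of Mfsd2a depended on the setting, and the size of its rise could move in only some settings. Under 18 alternatives its log2 change lay between 0.75 and 1.10 in brain against primary lines, and the call was kept in 12. Settings that changed only the spread, the features tested or the lung arrays could not move this difference of means, which stayed at 0.93. Among settings that could move it, it was lowest without brain line 2 (0.75) and highest without brain line 1 (1.10). It was lost without primary line 1 (adjusted p = 0.0707), primary line 2 (0.0572) or brain line 3 (0.0539), when each probe set counted as a feature (0.0683), when the 3 lung arrays were left out of the model (0.0862) and when variances were not moderated (0.125). The call against lung lines was lost without lung line 1 (0.0916), 2 (0.0955) or 3 (0.0716), without brain line 2 (0.0550) or 3 (0.0746), with each probe set as a feature (0.0897), without the primary arrays in the model (0.0777) and without moderated variances (0.156). The spread of Mfsd2a around its origin means, a residual SD of 0.241, was larger than that of 93.5% of all genes.

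**Figure D2:**
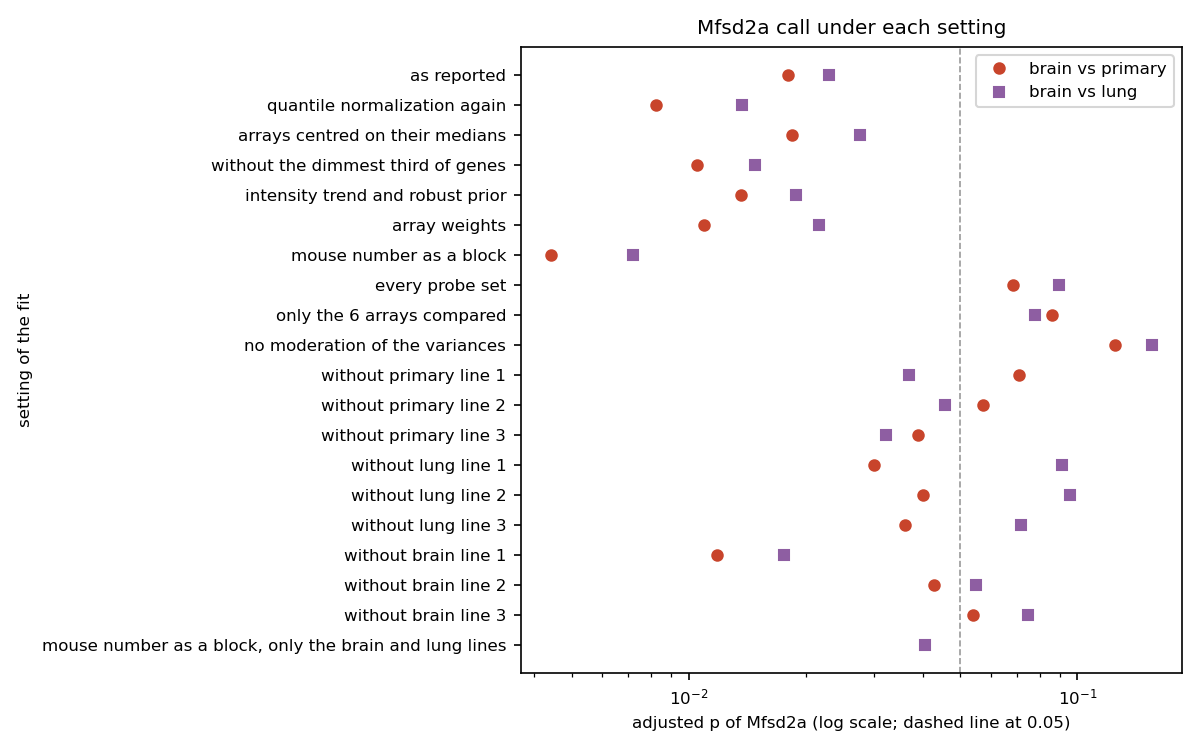
Adjusted p of Mfsd2a (horizontal log axis) under each setting of the fit (vertical axis), in brain against primary (circles) and brain against lung lines (squares), with a dashed line at 0.05. The reported values, 0.0180 and 0.0230, lie left of the line, and points to its right are settings in which the call was lost, up to 0.125 and 0.156 where variances were not moderated.

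Since MFSD2A is best known from brain endothelium, markers of that and other cell types were read in the same lines. The endothelial markers had a mean log2 level of 4.56 to 4.71 in brain lines, 4.67 to 4.70 in primary lines and 4.67 to 4.74 in lung lines. Of these 8 genes 3 lay above the median of unnamed probe sets in all origins, Flt1 (7.87 averaged over the 9 lines), Cldn5 (5.37) and Tie1 (4.76). Pecam1 (4.19), Cdh5 (4.16), Kdr (4.09), Tek (3.84) and Emcn (3.11) lay close to it or below it. Flt1 was the endothelial marker that passed in brain against primary lines, and it fell, with a log2 change of -0.53 ± 0.10 (adjusted p = 0.0250). The 10 markers of mammary carcinoma had mean levels of 9.91 to 10.04 in brain, 8.98 to 9.40 in primary and 9.10 to 9.44 in lung lines, and 3 of them (Krt19, Krt14 and Cdh1) rose in brain against primary lines while 7 did not pass. Against lung lines 2 of them (Krt14 and Cldn7) rose and 8 did not pass (of all genes 0.913% rose there, and 1.56% in brain against primary lines). The part of these markers in the rise of Mfsd2a was not tested. For astrocytes the mean levels were 4.09 to 4.15 in brain and 4.09 to 4.14 in primary lines. Of 5 measured oligodendrocyte markers, 4 did not pass in either comparison of brain lines, and Cnp fell in both. Its log2 change was -0.57 ± 0.09 against primary (limma adjusted p = 0.0128) and -0.47 ± 0.09 against lung lines (0.0362). Of all genes 1.57% and 1.07% fell there. No marker of fibroblasts, neurons or lung epithelium passed.

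Of the other genes in the list of lipid and nutrient carriers of the barrier, 21 were measured besides Mfsd2a. The list of 22 held 1 rise and 1 fall in brain against primary lines (1.56% and 1.57% of all genes). Its median log2 change was 0.16 against 0.00 over all genes. The fall was in Slc27a1, which encodes a fatty acid transport protein, with a log2 change of -0.59 ± 0.13 (adjusted p = 0.0397). Slc27a1 had levels of 9.07, 9.38 and 8.87 in brain and 9.65, 9.81 and 9.64 in primary lines 1 to 3. These groups did not overlap, and the call was lost in 7 of the 9 fits that left out 1 line, with adjusted p up to 0.134. Against lung lines Mfsd2a was the 1 carrier gene that rose, and 0 fell (0.913% and 1.07% of all genes).

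The promoters of Mfsd2a, Plaur and Hpse are shown because Plaur had the highest correlation with Mfsd2a among the 5 members above the unnamed probe set median, and because the Hpse levels of the 3 brain lines lay below those of all other lines, a difference that did not pass the test. Each is the 250 bases before the annotated start (RefSeq, GRCm38.p6), on the gene's own strand, 5′ to 3′, with capitals at letters matching 1 of 8 short motifs searched on both strands. The Mfsd2a stretch, chr4:122961189-122961438 on the minus strand, has 61.6% G or C. It holds a CCAAT box, read as ATTGG, 54 to 50 bases before the start and a nuclear receptor hexamer, AGGTCA, 213 to 208 bases before it.
Mfsd2a: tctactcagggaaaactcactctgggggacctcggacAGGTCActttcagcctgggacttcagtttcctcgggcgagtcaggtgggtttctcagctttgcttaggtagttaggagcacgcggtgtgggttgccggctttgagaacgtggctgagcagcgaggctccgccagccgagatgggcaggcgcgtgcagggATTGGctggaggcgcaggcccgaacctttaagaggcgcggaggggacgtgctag
The Plaur stretch, chr7:24462233-24462482 on the plus strand, has 59.6% G or C. It holds an AP-1 site, TGANTCA, 69 to 63 bases before the start and 3 GC boxes, GGGCGG, between 111 and 95 bases before it, of which the last pair shares 1 base.
Plaur: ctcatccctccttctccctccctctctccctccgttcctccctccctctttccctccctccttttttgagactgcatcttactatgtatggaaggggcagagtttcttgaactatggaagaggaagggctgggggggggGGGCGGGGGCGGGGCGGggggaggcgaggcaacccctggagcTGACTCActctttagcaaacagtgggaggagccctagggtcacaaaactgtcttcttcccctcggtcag
The Hpse stretch, chr5:100719717-100719966 on the minus strand, has 66.8% G or C and 1 GC box, 54 to 49 bases before the start.
Hpse: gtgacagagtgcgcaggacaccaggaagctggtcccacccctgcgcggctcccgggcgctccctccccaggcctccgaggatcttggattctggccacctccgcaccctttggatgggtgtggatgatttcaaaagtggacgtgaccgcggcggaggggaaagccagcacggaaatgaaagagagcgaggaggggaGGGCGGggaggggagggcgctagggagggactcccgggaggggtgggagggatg
Of 32851 promoters of this length in the table, 33.8% hold a CCAAT box, 32.7% a GC box, 14.0% the hexamer and 6.75% the AP-1 letters. The other motifs searched, CRE (TGACGTCA, 1.55% of promoters), E-box (CACGTG, 6.02%), TATA box (TATAAA, 12.4%) and TEAD site (GGAATG, 12.6%), had no match in these 3 stretches. These are matches of letters and show no binding.

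Plau, the gene of the protease that starts plasmin formation at the cell surface, had log2 levels of 8.99, 9.32 and 9.22 in brain lines 1, 2 and 3. Its levels were 8.78, 8.79 and 8.12 in primary lines 1, 2 and 3 and 8.52, 8.93 and 9.10 in lung lines 1, 2 and 3. The brain lines were above all primary lines, by a gap of 0.20, and overlapped with the lung lines, and primary line 3 stood below the other primary lines. The means were in the order brain (9.18), lung (8.85) and primary (8.56), and neither pair of neighbours in that order passed the test. In brain against primary lines the log2 change was 0.61 ± 0.20 (95% interval 0.17 to 1.06, limma adjusted p = 0.145), and without primary line 3 it was 0.39. The change was 0.32 ± 0.20 in brain against lung lines (adjusted p = 0.517), and in lung against primary lines 0.29 ± 0.20 (0.975). The spread of Plau within origins, a residual SD of 0.297, was larger than that of 97.1% of genes.

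Plaur, the gene of the urokinase receptor, had levels that overlapped between all origins. Its log2 levels were 10.39, 10.76 and 10.52 in brain lines 1, 2 and 3. They were 10.31, 10.42 and 10.44 in primary lines and 10.38, 10.49 and 10.42 in lung lines 1, 2 and 3. Brain line 2 was the highest of the 9, and brain line 1 lay inside the range of the other origins. The log2 change of 0.17 ± 0.10 in brain against primary lines had a 95% interval from -0.04 to 0.38 (adjusted p = 0.465). The change was 0.13 ± 0.10 in brain against lung lines (0.612) and 0.04 ± 0.10 in lung against primary lines (0.992).

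**Figure D3:**
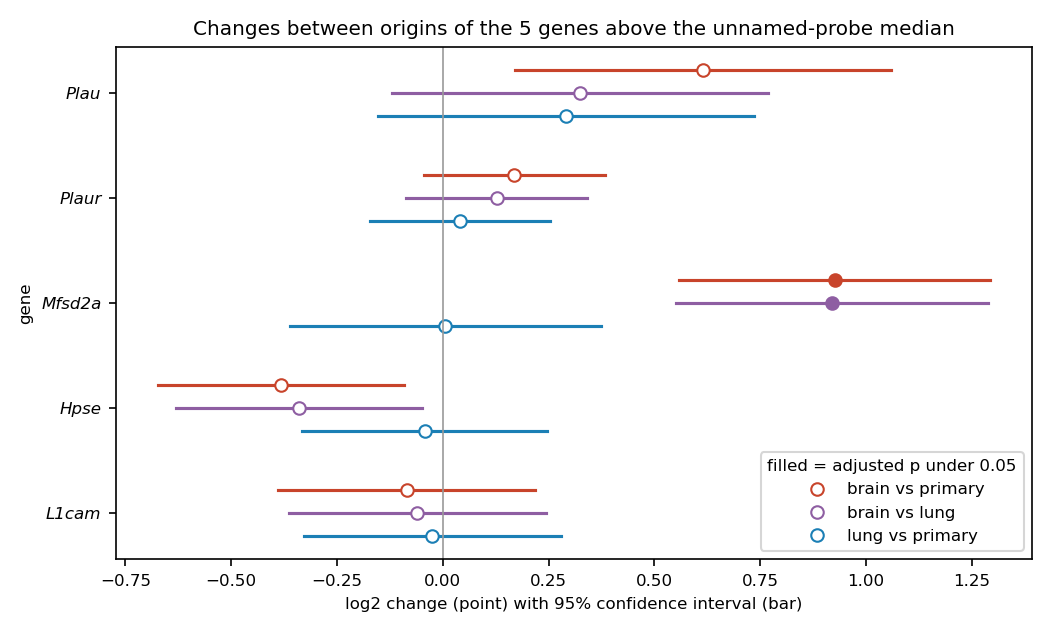
Log2 change (point, horizontal axis) with its 95% confidence interval (bar) for Plau, Plaur, Mfsd2a, Hpse and L1cam in the 3 comparisons, each of 3 against 3 lines; filled points passed at an adjusted p under 0.05. Both comparisons of brain lines are filled for Mfsd2a, at 0.93 and 0.92, and every other point is open.

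The serpin genes measured, whose products inhibit plasminogen activators, lay low in all lines. Serpini1, the gene of neuroserpin, had log2 levels of 3.50, 3.68 and 3.56 in brain lines, 3.50, 3.55 and 3.41 in primary lines and 3.57, 3.77 and 3.55 in lung lines, in the order of the mice. Serpinb2, the gene of the inhibitor PAI-2, had levels of 3.43, 3.51 and 3.70 in brain lines, 3.54, 3.57 and 3.51 in primary lines and 3.37, 3.45 and 3.58 in lung lines. For both genes the origins overlapped and all 9 lines lay below 4.18, the unnamed probe set median, so that no fold is given for levels that may be background. Their adjusted p in brain against primary lines was 0.698 for Serpini1 and 0.989 for Serpinb2. Among 48 measured genes whose symbol starts with Serpin, 12 had a mean above that median. Of the 48, 0 rose and 1 fell in brain against primary lines (1.56% and 1.57% of all genes). The fall was in Serpinf1, which encodes the secreted factor PEDF, with a log2 change of -0.33 ± 0.07 (adjusted p = 0.0315), a call lost in 8 of the 9 fits without 1 line (up to 0.108) and when arrays were centred on their medians.

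Of 28 measured genes of the plasminogen system, 2 rose and 1 fell in brain against primary lines (1.56% and 1.57% of all genes). The list's median log2 change was 0.02. The rises were in Mmp9, the gene of a gelatinase, with 1.52 ± 0.18 (adjusted p = 0.00336), and in Itgb2, the gene of an integrin chain of leukocytes, with 1.12 ± 0.23 (0.0301). The fall was in Mmp3, the gene of stromelysin, with -2.23 ± 0.38 (0.0145). Mmp9 kept its call without any 1 line, Mmp3 lost it without primary line 2 (0.0639), and Itgb2 lost it without any 1 of the 6 lines compared (up to 0.0980). Mmp9 also rose in brain against lung lines (1.33 ± 0.18, adjusted p = 0.00899), a call lost without lung line 2 (0.0528), and Mmp3 fell (-2.32 ± 0.38, 0.0193), a call lost without any 1 lung line (up to 0.0931). Plat, the gene of the other plasminogen activator, was singled out after its values were seen. It had log2 levels of 6.39, 6.44 and 5.81 in brain lines and 7.33, 7.32 and 6.75 in primary lines 1 to 3. The groups did not overlap, and the change of -0.92 ± 0.22 missed the threshold (adjusted p = 0.0610). It passed under 2 of 18 alternatives, without the dimmest genes (0.0393) and with array weights (0.0352), and missed it under the others, with 0.166 for each probe set as a feature, 0.240 without moderated variances and 0.190 without primary line 1. In lung lines 1 to 3 Plat had levels of 6.38, 6.68 and 7.07, which overlapped with both other origins.

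L1cam, the gene of the adhesion molecule that plasmin cleaves, had log2 levels of 4.78, 5.02 and 4.41 in brain lines 1, 2 and 3. The levels were 4.84, 4.84 and 4.80 in primary lines and 4.84, 4.91 and 4.65 in lung lines. The brain lines held both the highest and the lowest of the 9 levels, with an SD of 0.305 against 0.0226 in primary lines. The log2 change was -0.09 ± 0.14 in brain against primary lines (95% interval -0.39 to 0.22, adjusted p = 0.860), in brain against lung lines -0.06 ± 0.14 (0.896) and in lung against primary lines -0.02 ± 0.14 (1.00). L1cam had the same value, 4.84, on 3 arrays. Such ties can arise from the summary step of RMA, and 35.1% of all genes had 1 value on 3 or more arrays. Of 22 measured genes of the L1 family and its partners, 1 rose and 0 fell in brain against primary lines (1.56% and 1.57% of all genes). The rise was in Nrp1, the gene of the semaphorin and VEGF co-receptor neuropilin-1, with levels of 8.10, 8.49 and 8.21 in brain and 7.46, 7.49 and 7.21 in primary lines 1 to 3. The groups stood apart, with a log2 change of 0.88 ± 0.15 (adjusted p = 0.0165) that lost its call without primary line 1 or 3 or brain line 2 (up to 0.0617).

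St6galnac5 had log2 levels of 4.10, 4.04 and 4.12 in brain lines, 4.10, 4.02 and 4.10 in primary lines and 4.15, 4.10 and 4.38 in lung lines 1 to 3. Of the 9 lines, lung line 3 alone lay above the median of unnamed probe sets, 4 arrays shared 1 value, and no fold is given. Its adjusted p was 0.972 in brain against primary and 0.566 in brain against lung lines. Of 28 measured genes of sialic acid transfer and removal, 1 rose and 1 fell in both comparisons of brain lines. The shares over all genes were 1.56% and 1.57% against primary lines, and 0.913% and 1.07% against lung lines. St6galnac4, which encodes an enzyme of the same family, had levels of 7.83, 8.06 and 7.97 in brain and 7.04, 7.33 and 7.24 in primary lines 1 to 3. St6gal1, whose enzyme adds sialic acid to N-glycans, had levels of 7.64, 7.84 and 7.64 in brain and 8.25, 8.42 and 8.21 in primary lines. The groups did not overlap in either gene. In brain against primary lines the log2 change was 0.75 ± 0.10 for St6galnac4 (adjusted p = 0.00568) and -0.59 ± 0.09 for St6gal1 (0.00816), and both calls were kept without any 1 of the 9 lines. In brain against lung lines the changes were 0.53 ± 0.10 (0.0307) and -0.54 ± 0.09 (0.0180), and both calls were lost without lung line 2, lung line 3 or brain line 3, and that of St6galnac4 also without lung line 1 or brain line 2 (up to 0.111 and 0.0875).

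Ctss, the gene of cathepsin S, had log2 levels of 4.23, 3.80 and 3.90 in brain lines, 3.90, 4.01 and 3.91 in primary lines and 3.90, 3.82 and 3.67 in lung lines 1 to 3. The origins overlapped, brain line 1 alone exceeded the median of unnamed probe sets, and no fold is given. The adjusted p was 0.938 in brain against primary and 0.517 in brain against lung lines. Cathepsin S is abundant in macrophages, and of 10 markers of macrophages and microglia 5 lay above that median in all origins and 5 did not. Averaged over the 9 lines, Ptprc (3.89), Csf1r (4.17), Itgam (3.72), Aif1 (3.47) and Adgre1 (3.31) were below it, and Cx3cr1 (5.21), C1qa (4.94), Tyrobp (4.87), Tmem119 (4.87) and P2ry12 (4.48) above it. The 10 together had a mean of 4.25 to 4.33 in brain, 4.26 to 4.33 in primary and 4.19 to 4.42 in lung lines. Of 23 measured cathepsins and their inhibitors, 1 rose and 1 fell in brain against primary lines (1.56% and 1.57% of all genes). Ctsw, the gene of a cathepsin known from cytotoxic lymphocytes, rose by 1.74 ± 0.27 on the log2 scale (adjusted p = 0.00973), with levels of 6.19, 5.63 and 7.004 in brain and 4.42, 4.58 and 4.59 in primary lines 1 to 3. The groups stood apart, and the call was kept without any 1 of the 9 lines and lost when the lung arrays were left out of the model (0.0707). Against lung lines Ctsw rose by 1.29 ± 0.27 (0.0408), a call lost in 7 of 9 such fits (up to 0.138) and with the mouse number as a block in the brain and lung lines alone (0.0841). Ctsh, the gene of the lysosomal cathepsin H, had a log2 change of -0.55 ± 0.09 in brain against primary lines (0.0151), a call lost without primary line 1 or 2 or brain line 2 or 3 (up to 0.0653).

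Hpse, the gene of heparanase, had log2 levels of 5.99, 6.21 and 5.86 in brain lines 1, 2 and 3. The levels were 6.28, 6.65 and 6.28 in primary lines and 6.26, 6.54 and 6.28 in lung lines 1, 2 and 3. The 3 brain lines were the lowest of the 9, with a gap of 0.07 to the primary and 0.05 to the lung lines, and mouse 2 was the highest in each origin. The log2 change was -0.38 ± 0.13 in brain against primary lines (95% interval -0.67 to -0.09, adjusted p = 0.167) and -0.34 ± 0.13 in brain against lung lines (-0.63 to -0.05, 0.250). Neither passed. In lung against primary lines the change was -0.04 ± 0.13 (0.993). With the mouse number as a block and all 9 arrays fitted, both changes of the brain lines passed (limma adjusted p = 0.0229 against primary and 0.0431 against lung lines). With that block in the brain and lung lines alone the change against lung lines did not pass (0.0941). Same-numbered mice are different animals, and the primary lines, which the block of all 9 arrays includes, did not pair by number. Of 33 measured genes of heparan sulfate making and cleavage, 0 passed in brain against primary lines (3.13% of all genes). In brain against lung lines Hs6st1, the gene of a heparan sulfate sulfotransferase, rose (log2 change 0.42 ± 0.09, adjusted p = 0.0430), a call lost without any 1 line and with that block in the brain and lung lines alone (0.0841), and Sdc3, the gene of the proteoglycan syndecan-3, fell (-0.90 ± 0.17, 0.0270), a call lost without any 1 of the 6 lines compared.

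**Figure D4:**
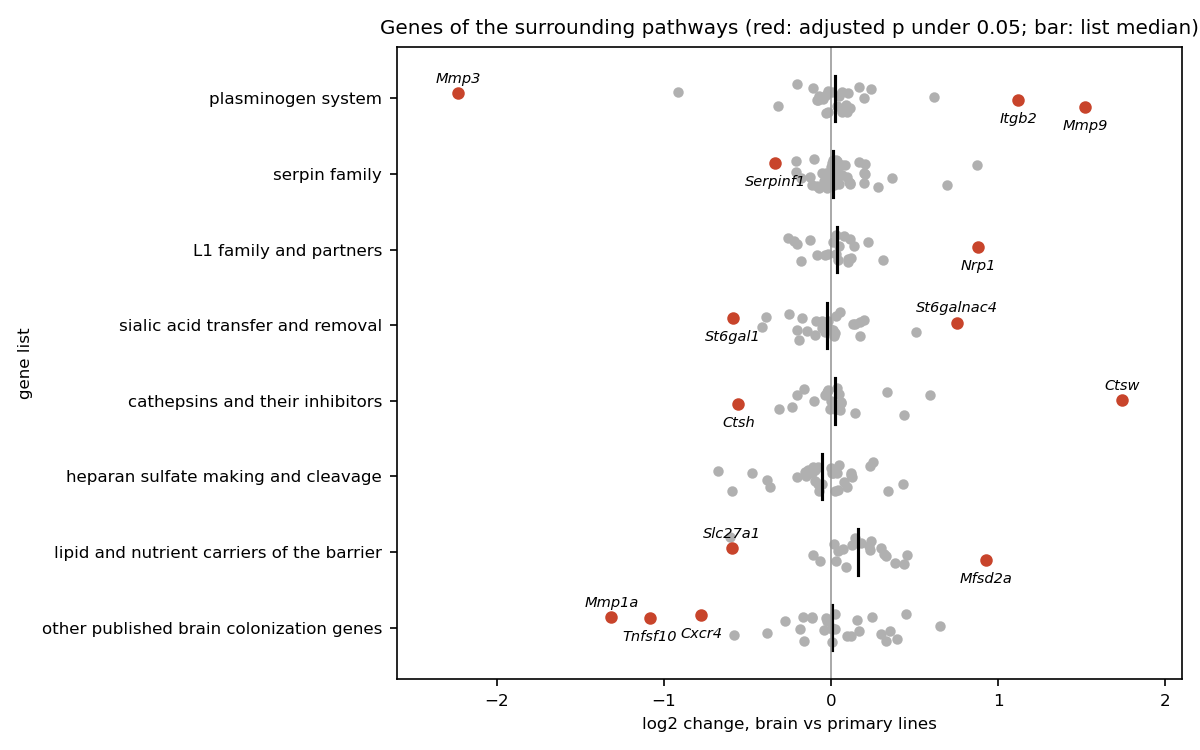
Log2 change in brain against primary lines (horizontal axis) of each measured gene in 8 gene lists around the members (rows), with named red points for genes at an adjusted p under 0.05, grey points for the rest and a black bar at each list's median. The carriers have a median of 0.16, and the largest fall is that of Mmp3, at -2.23.

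In a list of 30 other genes published for brain colonization, 0 rose and 3 fell in brain against primary lines (1.56% and 1.57% of all genes). Tnfsf10, the gene of the death ligand TRAIL, had log2 levels of 4.05, 4.21 and 3.74 in brain and 4.98, 5.28 and 5.003 in primary lines 1 to 3 (adjusted p = 0.00271). The groups did not overlap and the call was kept without any 1 line, and since the brain mean of 4.00 lies below the unnamed probe set median no fold is given. The other falls were in Mmp1a, a collagenase gene (-1.31 ± 0.26, adjusted p = 0.0282), and Cxcr4, a chemokine receptor gene (-0.78 ± 0.16, 0.0349), which lost their calls in 6 and 8 of the 9 fits without 1 line. In brain against lung lines 2 of the 30 fell, where 1.07% of all genes did. They were Tnfsf10 (adjusted p = 0.0175) and the chemokine gene Ccl2 (log2 change -1.08 ± 0.16, 0.0146). Both lost their call without lung line 2 or 3, Tnfsf10 also without lung line 1. With the mouse number as a block in the brain and lung lines alone both missed the threshold (0.0547 for Tnfsf10 and 0.0531 for Ccl2). In lung against primary lines 0 genes of the 8 lists passed.

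The calls of the genes named from the 8 lists, without the cell type markers, also depended on other settings. In brain against primary lines all 13 such calls outside the members were lost without moderated variances, with adjusted p from 0.0627 for Tnfsf10 to 0.166 for Cxcr4. With each probe set as a feature 8 of them were lost, those of Mmp3 (0.0621), Itgb2 (0.102), Nrp1 (0.0647), Ctsh (0.0544), Slc27a1 (0.114), Mmp1a (0.0974), Cxcr4 (0.111) and Serpinf1 (0.0745). When the lung arrays were left out of the model, 8 were lost, those of Ctsw and of the same genes except Nrp1, with adjusted p up to 0.117. Mmp9, St6gal1, St6galnac4 and Tnfsf10 kept their calls under both of these settings. Of the 9 such calls in brain against lung lines, Mmp9 alone was kept with each probe set as a feature and Ccl2 alone without the primary arrays in the model, and 0 were kept without moderated variances.

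Lines of 1 origin were not alike in these genes. In all 5 genes that lay above the median of unnamed probe sets in every origin (Plau, Plaur, L1cam, Hpse and Mfsd2a), brain line 2 was the highest of the brain lines. Over the 14307 genes with a mean above that median, brain line 2 was the highest brain line in 33.6%. The levels of the 5 genes in that line come from 1 array and are not independent of each other, and the pattern was not tested. Plaur and Mfsd2a had a Pearson r of 0.84 over the 9 lines and of 0.95 for deviations from origin means. Hpse and Mfsd2a had r = -0.56 over the 9 lines and 0.46 for deviations. Plau and Plaur had 0.53 and 0.21, and Plau and Mfsd2a 0.64 and 0.21. These correlations describe 9 lines, whose levels share an array in each point.

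**Figure D5:**
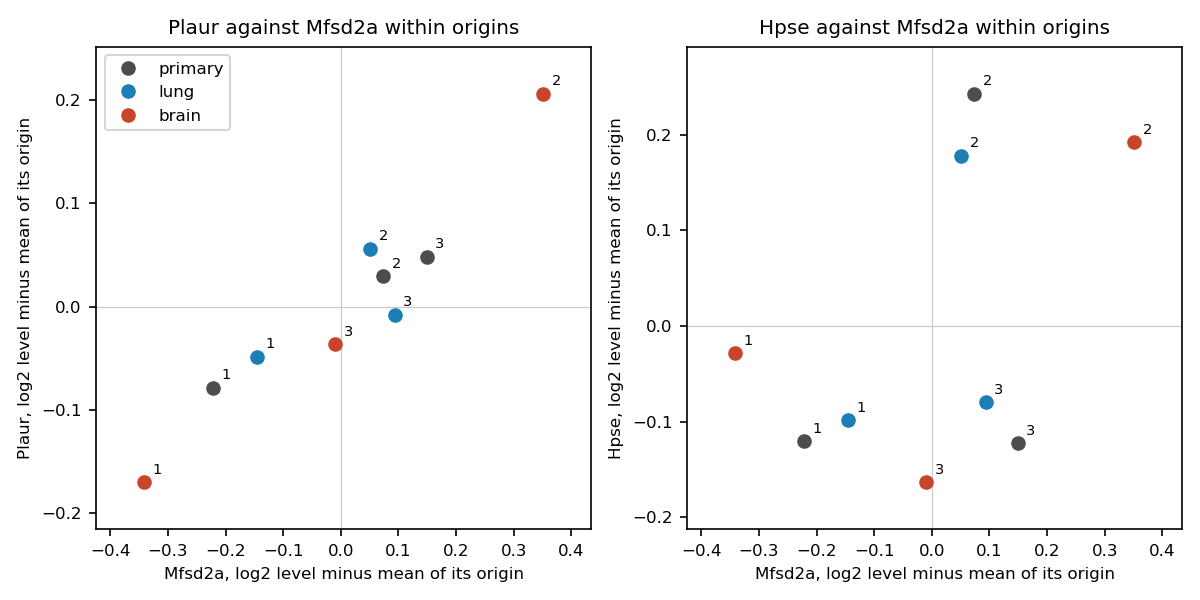
Deviation of Plaur (left) and Hpse (right) from the mean of its origin (vertical axis, log2) against that of Mfsd2a (horizontal axis, log2), 1 point per line with its mouse number, coloured by origin. For Plaur the points lie along a rising line (r = 0.95); for Hpse they scatter more widely (r = 0.46), with the 3 lines numbered 2 at the top.

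The 3 genes whose levels over the 9 lines were most like those of Mfsd2a, by Pearson r among 18710 candidates, were Cpeb2 (0.985), Dnajc2 (0.981) and Zfp296 (0.975), and 172 genes had an r above 0.9. Cpeb2, which encodes a protein that binds mRNA and regulates translation, had log2 levels of 6.31, 7.14 and 6.62 in brain, 5.59, 5.66 and 5.75 in primary and 5.52, 5.89 and 5.73 in lung lines 1 to 3. Its brain lines stood above the other 6, as for Mfsd2a, with a log2 change of 1.02 ± 0.18 against primary lines (adjusted p = 0.0177). Dnajc2, the gene of a ribosome-associated chaperone, had a change of 0.29 ± 0.08 (0.101), and Zfp296, a zinc finger gene, 0.53 ± 0.15 (0.103), and neither passed.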

How the data were processed

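The 9 arrays, 3 per origin, were read as deposited log2 intensities of 35557 probe sets, a table that the authors made by RMA, according to the submitters' processing notes. The log base follows from the range of the values, and a version of RMA is not given in the sources used here, nor is a genome build. Array medians lay between 5.06 and 5.19, and the interquartile range of relative log expression reached 0.201 in brain line 3 and 0.186 in lung line 1. Of the probe sets 21789 had 1 gene symbol, 1621 several and 12147 none, and the single-symbol sets gave the gene names, without a filter on low values. Single genes with a group mean below 4.18, the median of probe sets with no symbol, are given without a fold.

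Genes were tested with limma 3.58.1 in R 4.3.3 (lmFit and eBayes, two-sided, 1 coefficient per origin, 6 residual and 3.72 prior degrees of freedom), checked on simulated data. Errors after ± are standard errors. The p-values set each change against the moderated spread between lines within origins, pooled over the 3 origins, which may hold technical spread. Precision is limited by the number of arrays, and an exact permutation test of 3 against 3 lines cannot go below p = 0.1. The members and lists were chosen with earlier results of these data known. Of 251 list and marker symbols 241 matched. Up to 4 called genes per list with the largest change were named, and the 3 genes most like each member called by the F test. Deviations of same-numbered brain and lung lines correlated across genes at 0.284, 0.130 and 0.241, all above 0.1, which counts as paired by number, while those of primary lines with brain (0.067, -0.001 and -0.044) or lung lines (0.221, 0.079 and 0.008) did not. There were 18 alternatives: other normalization, filters, priors, weights, a block by mouse number, other probe sets or arrays, no moderation, and each line left out.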

Additional observations from a re-analysis of the deposited data

How the results depend on the processing

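The counts of called genes moved with the setting, while several settings could not move a member's log2 change. In brain against primary lines 624 genes were called, and 246 with every probe set, 197 with only the 6 arrays compared, 51 without moderation of the variances and 273 to 556 without 1 line. The members called there were 2 with the mouse number as a replicate block (Mfsd2a, adjusted p = 0.00442, and Hpse, 0.0229), 0 with every probe set, 0 with the 6 arrays, 0 without moderation, and 0 to 1 without 1 line. That block pairs primary lines by number, although their deviations did not pair with those of brain lines in this way. In brain against lung lines 395 genes were called, and 92, 107 and 3 under the same 3 settings, 233 with the block and only the brain and lung lines, and 69 to 417 without 1 line. The members called there were 2 with the replicate block of all 9 arrays (Mfsd2a, 0.00722, and Hpse, 0.0431), 1 with the block in the brain and lung lines alone (Mfsd2a, 0.0406), an alternative chosen after seeing the data, 0, 0 and 0 under the 3 settings, and 0 to 1 without 1 line. In lung against primary lines 1 gene passed without moderation. The F test called 470 genes, 92 with every probe set, 2 without moderation and 160 to 370 without 1 line. Each of the 27 tests of the members was counted once per alternative. Of these results 467 kept their outcome, 14 lost the call, all of Mfsd2a, and 2 gained a call, both of Hpse. No called value changed sign, and 15 uncalled values near 0 did. Signal near background limits what can be said of Serpinb2, Serpini1, St6galnac5 and Ctss.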
